A study of Mus musculus with 4 samples.

Results

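The 10 genes described here encode the proteins that make miRNAs and carry out their silencing in mouse cells: Drosha, Dgcr8, Xpo5, Dicer1, Tarbp2, Ago1, Ago2, Ago3, Ago4 and Tnrc6a. They were chosen by name for their role, at a time when earlier results of these data were known, and all 10 were found among the 55487 genes of the deposited tables and among the 17155 genes that had enough reads to be tested. The libraries came from mouse small intestinal (SI) organoids, epithelial cultures grown from isolated crypts. The organoids were infected with a lentivirus that carried a miRNA mimic control or, in the other group, a mimic of miR-181a-5p, and in both groups infected cells were selected with puromycin (2 μg/ml). Each group had 2 RNA-seq libraries, controls numbered replicates 1 and 2 and mimics numbered 3 and 4. The mouse strain, genotype, age and time after infection are not given in the sources used here. No source states whether libraries within a group derive from separate mice or cultures, so the tests measure only the spread between these libraries.

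A miRNA is cut in the nucleus and again in the cytoplasm on its way to the mature form. In the nucleus, the Microprocessor, made of the nuclease Drosha and its RNA-binding partner Dgcr8, releases a hairpin from the primary transcript. Exportin 5 (Xpo5) carries the hairpin to the cytoplasm, where Dicer1 with its partner Tarbp2 cuts away the loop. One strand is then loaded into an Argonaute protein, which finds mRNAs that pair with the seed of the miRNA and recruits a GW182 protein such as Tnrc6a. GW182 proteins in turn bring in the enzymes that shorten the poly(A) tail and remove the cap. Among the Argonautes of the mouse, Ago2 is the one known for slicing a fully paired target. The sources used here do not describe the form of the mimic in the lentivirus, so the steps that the mimic needs are not known. The comparison asks whether the genes of the machinery differed where the organoids carried the mimic.

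The mature miR-181a-5p is shown first because its seed defines the sites that were sought in the 10 genes, with bases 2 to 8 in capitals. RefSeq places the same mature sequence at chr1:137966468-137966490 and at chr2:38852741-38852763, both on the plus strand of GRCm38.
miR-181a-5p: aACAUUCAacgcugucggugagu
The hairpins annotated for the natural genes Mir181a-1 and Mir181a-2 follow, with the miR-181a-5p arm in capitals. Mir181a-1 spans 87 bases at chr1:137966455-137966541, and Mir181a-2 spans 76 bases at chr2:38852735-38852810. Whether the mimic in the lentivirus is built as a hairpin is not described in the sources used here.
Mir181a-1: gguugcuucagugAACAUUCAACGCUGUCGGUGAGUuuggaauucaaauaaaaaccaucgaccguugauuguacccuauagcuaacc
Mir181a-2: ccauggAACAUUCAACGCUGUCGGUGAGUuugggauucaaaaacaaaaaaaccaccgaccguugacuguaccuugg
These libraries were made to read mRNA and other long RNA. Mir181a-1 and Mir181a-2 are both listed at 0 counts in all 4 libraries, so the level of the mimic was not measured by them.

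The libraries held between 31104884 and 38111731 expected counts. Transcripts encoded by mitochondria made up 4.30% and 4.55% of all counts in control and 3.46% and 3.43% in mimic libraries. The 14 epithelial markers sought summed to between 3243 and 3831 TPM (a level scaled to transcript length and to a fixed library total). Of these markers, 7 had a log2 fold change above 0 and 7 below, and 2 were called. Lgr5, a marker of intestinal stem cells, was lower with a log2 fold change of -1.38, and Cdx1 was higher with 0.47. Olfm4, another stem cell marker, had overlapping groups and a log2 fold change of 0.22. Of the mesenchymal markers, 9 genes summed to between 2.76 and 7.45 TPM and Col1a2, Col3a1, Dcn and Lum were at 0. Vim made up most of that sum, with 3.74 and 2.24 TPM in control and 4.02 and 6.82 TPM in mimic libraries. Of the 3 mesenchymal markers tested, 2 had a log2 fold change above 0 and 1 below, and 0 were called. The 4 endothelial markers summed to between 0.16 and 0.43 TPM, with Cdh5 and Kdr at 0. The 7 leukocyte markers summed to between 84.5 and 97.0 TPM, of which Lcp1 alone made up between 83.4 and 95.2 TPM, while the defining marker Ptprc had between 1 and 5 counts. Of the 2 leukocyte markers tested, Lcp1 and Itgam, 2 had a log2 fold change above 0 and 0 below, and 0 were called. Itgam had 0.38 and 0.64 TPM in control and 0.86 and 1.3 TPM in mimic libraries, with an adjusted p of 0.111 by the edgeR quasi-likelihood test. The 12 proliferation markers summed to 909 and 916 TPM in the controls and to 1013 and 1055 TPM in the mimic libraries, and 1 of them, Mcm2, was called, with a log2 fold change of 0.51. The part of these markers in the differences below was not tested. Over all tested genes 612, or 3.57%, passed an adjusted p of 0.05, 220 of them higher and 392 lower with the mimic, and 354, or 2.06%, also differed at least 2-fold (edgeR quasi-likelihood test, Benjamini-Hochberg adjustment over all tested genes).

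None of the 10 genes passed that test: 0 were called at an adjusted p of 0.05, against 3.57% of all tested genes. The exact and likelihood-ratio tests of edgeR and DESeq2 called 0 of them as well. Over all genes these tests called 1788 of 17155, 1864 of 17155 and 1299 of 14105. At an unadjusted p under 0.05 the machinery had 4 genes, with Dgcr8, Xpo5 and Dicer1 higher and Ago4 lower, beside 24.8% of all genes in both directions (11.8% higher and 13% lower). The median log2 fold change of the 10 genes (mimic against control) was 0.03, and that of all tested genes was -0.01 with quartiles of -0.30 and 0.20. For 9 of the 10 genes the 95% interval of the fold change lay within 2-fold in either direction, which held for 66.6% of all tested genes. Ago4 was the exception. In bulk RNA, a difference in the number of cells that express a gene and a difference in the amount of RNA per cell cannot be told apart.

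**Figure D1:**
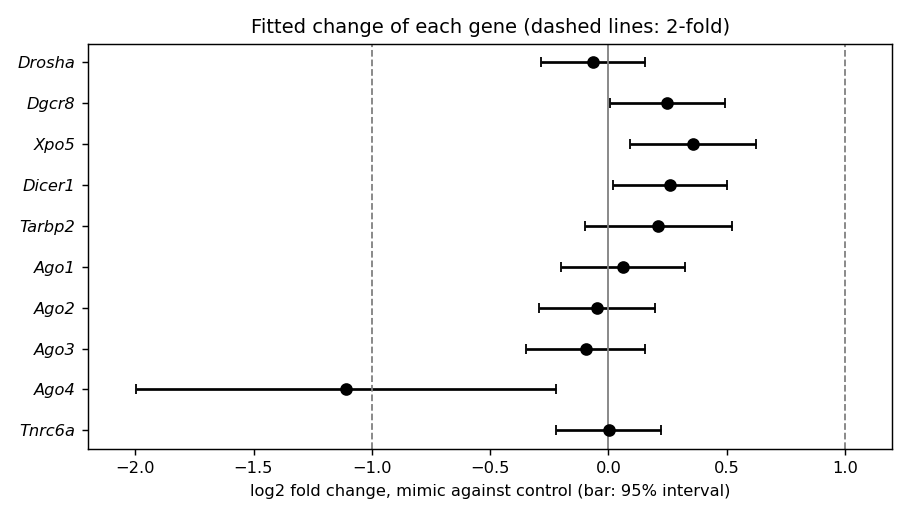
Fitted log2 fold change of each of the 10 genes (points, mimic against control, 2 libraries per group) with its 95% interval (bars), from the edgeR fit; the dashed lines mark a 2-fold difference. Intervals of 9 genes stay between the dashed lines, and that of Ago4 reaches from -2.0 to -0.22.

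On the TPM scale, 8 of the 10 genes lay close together and 2 Argonautes lay far below them. In the controls the order of the mean levels ran from Ago2 at 35.2 TPM through Dicer1 at 29.3, Drosha at 23.8, Tnrc6a at 23.3, Dgcr8 at 22.6, Ago1 at 19.2, Xpo5 at 17.8 and Tarbp2 at 16.4 TPM to Ago3 at 5.04 and Ago4 at 0.715 TPM. In that order the ranges of the 2 libraries overlapped between Drosha and Tnrc6a, Tnrc6a and Dgcr8, Ago1 and Xpo5, and Xpo5 and Tarbp2. With the mimic, Dicer1 and Ago2 stood first with overlapping ranges, and Ago3 and Ago4 were again last. Among all tested genes, the mean TPM of Ago2 was at percentile 80.3, that of Ago3 at 41.5 and that of Ago4 at 12.9. The other 7 genes lay between percentile 65.4 (Tarbp2) and 78.7 (Dicer1).

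**Figure D2:**
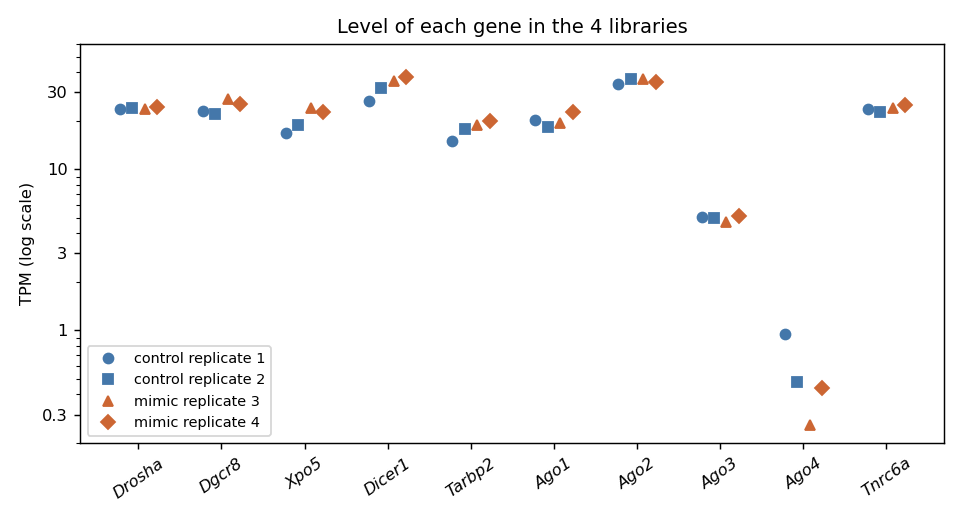
TPM of the 10 genes (log scale) in each of the 4 libraries, with controls in blue and mimic libraries in orange. Ago2 and Dicer1 are highest, Ago3 sits near 5 TPM, and Ago4 is under 1 TPM in every library.

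Neither gene of the Microprocessor passed the test. Drosha, its nuclease (GRCm38, chr15:12824815-12935291, plus strand), had 82.4 and 86.5 normalized CPM (counts scaled to the corrected library total, not to length) in control and 83.0 and 78.4 in mimic libraries. The groups overlapped, and the log2 fold change was -0.07 with an SE of 0.09 and an adjusted p of 0.705 by the edgeR quasi-likelihood test. Its interval, from -0.29 to 0.16, was among the narrower ones of the 10 genes. Dgcr8, which recognises the hairpin in the primary transcript (chr16:18253948-18289246, minus strand), had 57.4 and 52.9 CPM in control and 68.6 and 62.4 CPM in mimic libraries. Both mimic libraries lay above both controls, with a log2 fold change of 0.25, an SE of 0.10, a 95% interval from 0.00 to 0.49 and an unadjusted p of 0.0466 that gave 0.195 after edgeR's adjustment over all genes. The 3′ end of Trmt2a, read from the opposite strand, overlaps the 3′ end of Dgcr8 in the annotation, and Trmt2a had 1691 and 1338 counts in control and 1552 and 1540 in mimic libraries. Whether the counting used strand is not given in the sources used here.

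Xpo5, the export receptor of hairpin precursors (chr17:46202782-46243598, plus strand), had the largest positive log2 fold change of the 10. Its normalized level was 65.3 and 73.3 CPM in control and 95.2 and 82.3 CPM in mimic libraries, so that the lowest mimic library stood above the highest control. The mean of the mimic libraries was 19.5 CPM above that of the controls, more than the 7.99 CPM between the controls and the 12.8 CPM between the mimic libraries. The log2 fold change was 0.36 with an SE of 0.11 and a 95% interval from 0.09 to 0.62. The unadjusted p was 0.0151, and the adjusted p was 0.117 by edgeR over all tested genes. Without control replicate 2 the adjusted p became 0.0473, and over all the alternatives it ranged from 0.0473 to 0.513.

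The cytoplasmic cutting step had values of the same kind. Dicer1, the enzyme that cuts the hairpin's loop away (chr12:104687742-104751952, minus strand), had 103 and 119 CPM in control and 134 and 131 CPM in mimic libraries. The difference between the means, 21.9 CPM, exceeded the 15.5 CPM between the controls. The log2 fold change was 0.26 with an SE of 0.10, an interval from 0.02 to 0.50 and an adjusted p of 0.177 by edgeR. Without control replicate 1 the log2 fold change was 0.16, and over all alternatives the adjusted p ranged from 0.0529 to 0.530. In TPM the same gene had 26.7 and 32 in control and 35.2 and 37.7 in mimic libraries. Tarbp2, the double-stranded RNA-binding partner of Dicer1 (chr15:102518192-102523676, plus strand), had 16.2 and 18.8 CPM in control and 20.7 and 19.7 CPM in mimic libraries. Its groups did not overlap either, but the log2 fold change of 0.21 had an SE of 0.13, an interval from -0.10 to 0.52 and an adjusted p of 0.360 by edgeR. It was 0.10 without control replicate 1 and 0.325 without control replicate 2, with an adjusted p of 0.780 and 0.196.

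On the CPM scale, Dgcr8, Xpo5, Dicer1 and Tarbp2 were the 4 genes of the 10 for which both mimic libraries were higher than both controls, and 28.9% of all tested genes had that order. They were also the 4 whose difference of means exceeded the spread between replicates in both groups. The share of all tested genes for which that held was not counted, so the count of 4 is a description only. For Ago3 and Ago4 both mimic libraries were lower than both controls, as for 29.5% of all tested genes. For Drosha, Ago1, Ago2 and Tnrc6a the groups overlapped. On the TPM scale 2 of these orders differed: Tnrc6a had both mimic libraries above both controls, and the groups of Ago3 overlapped. With 2 libraries against 2, an exact two-sided permutation test of a single gene cannot give a p below 0.33.

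The Argonautes, which hold the miRNA, summed to a nearly constant level. Together the 4 genes gave 60.2 and 59.99 TPM in control and 60.7 and 63.2 TPM in mimic libraries. Ago2 held 56.5% and 60.6% of that sum in control and 59.8% and 55.1% in mimic libraries. Ago1 held 33.5% and 30.3% in control and 32.1% and 36.1% in mimic libraries. The ranges of the groups overlapped for both genes. Ago3 held between 7.71% and 8.43% in the 4 libraries, and Ago4 held 1.58% and 0.800% in control and 0.429% and 0.696% in mimic libraries. Shares on the CPM scale, which is not corrected for length, gave Ago2 more and Ago1 less (69.9% and 21.3% in the controls).

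**Figure D3:**
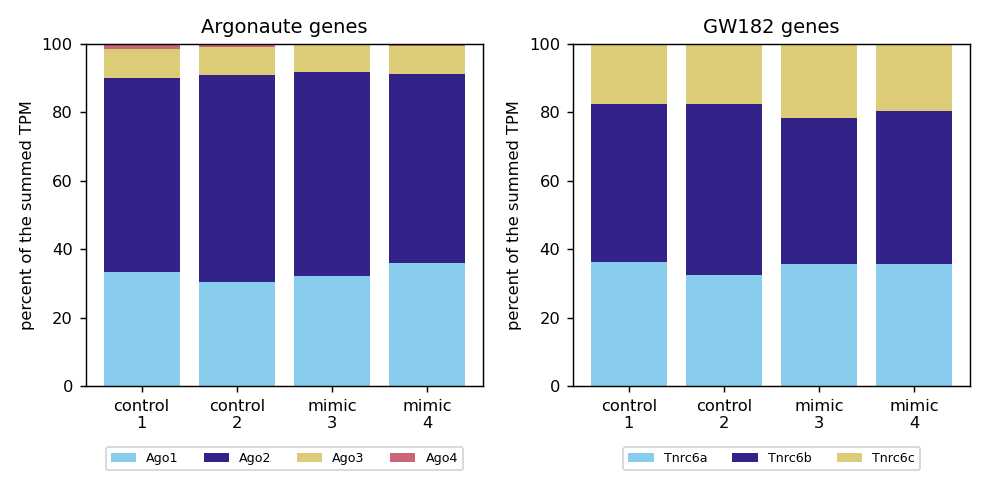
Share of each gene in the summed TPM of the Argonaute genes (left) and of the GW182 genes (right) in each library, in percent. Ago2 fills between 55.1% and 60.6% of the Argonaute bars, and Tnrc6b is the largest part of each GW182 bar.

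Ago2, the slicing Argonaute (chr15:73095844-73184935, minus strand), had 303 and 344 CPM in control and 304 and 321 CPM in mimic libraries. Both mimic libraries fell between the controls, and the log2 fold change was -0.05 with an SE of 0.11, an interval from -0.29 to 0.20 and an adjusted p of 0.808 by edgeR. The 3′ end of Ago2 overlaps Chrac1 on the opposite strand, which had between 550 and 692 counts, against between 9521 and 11616 for Ago2.

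Ago1, Ago3 and Ago4 lie side by side on the minus strand of chromosome 4, in the order Ago3 (chr4:126331704-126429556), Ago1 (chr4:126435012-126468583) and Ago4 (chr4:126489541-126533472), with 5455 and 20957 bases between them. Their mean control levels were 19.2 TPM for Ago1, 5.04 TPM for Ago3 and 0.715 TPM for Ago4. Ago1 had 106 and 90.4 CPM in control and 98.4 and 107 CPM in mimic libraries, and its log2 fold change was 0.06 with an SE of 0.11 and an interval from -0.20 to 0.32. Ago3 had 36.3 and 37.0 CPM in control and 35.8 and 32.8 CPM in mimic libraries, and its log2 fold change was -0.10 with an SE of 0.11 and an interval from -0.35 to 0.15. On the TPM scale the Ago3 groups overlapped, with 5.08 and 4.99 in control and 4.68 and 5.13 in mimic libraries. The adjusted p was 0.772 for Ago1 and 0.610 for Ago3 by edgeR.

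Ago4 had the largest fitted difference of the 10 genes and the fewest reads. It had 199 and 81 counts in control and 45 and 78 in mimic libraries, or 5.19 and 2.61 CPM against 1.44 and 2.19 CPM. Control replicate 1 stood apart, at 1.99 times the level of control replicate 2, while control replicate 2 was close to mimic replicate 4. The mean of the mimic libraries minus that of the controls was -2.09 CPM, smaller in size than the 2.58 CPM between the controls. The log2 fold change was -1.11 with an SE of 0.38, an interval from -2.0 to -0.22, an unadjusted p of 0.0206 and an adjusted p of 0.134 by edgeR. Without control replicate 1 the log2 fold change was -0.52 with an adjusted p of 0.500, and without control replicate 2 it was -1.50 with an adjusted p of 0.0137. The size of the Ago4 difference therefore depended on which control library was kept.

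**Figure D4:**
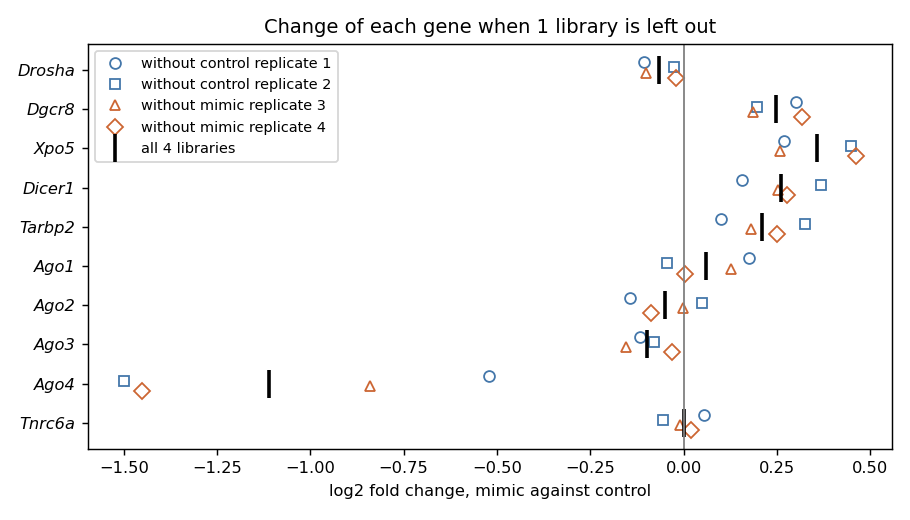
Log2 fold change of each of the 10 genes from all 4 libraries (black bars) and after leaving out each library in turn (open symbols). Ago4 runs from -1.50 to -0.52, while Xpo5, Dgcr8, Dicer1 and Tarbp2 stay above 0 and Drosha and Ago3 below 0 in every case.

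Tnrc6a, the GW182 protein through which an Argonaute reaches the silencing enzymes (chr7:123123885-123195296, plus strand), had 120 and 111 CPM in control and 117 and 114 CPM in mimic libraries. On this scale both mimic libraries lay between the controls, and the log2 fold change was 0.00 with an SE of 0.09, an interval from -0.22 to 0.22 and an adjusted p of 0.999 by edgeR. On the TPM scale Tnrc6a had 23.9 and 22.7 in control and 23.98 and 25.1 in mimic libraries, which did not overlap. Its paralog Tnrc6b had 30.6 and 34.8 TPM in control and 28.6 and 31.3 TPM in mimic libraries. Of the summed TPM of the 3 GW182 genes, Tnrc6a held 36.2% and 32.5% in control and 35.7% and 35.8% in mimic libraries. Tnrc6c held 17.5% and 17.6% in control and 21.7% and 19.6% in mimic libraries, and its log2 fold change of 0.18 had an adjusted p of 0.332 by edgeR.

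Sites for miR-181a-5p were sought in the 3′ UTRs of the same genes, a feature that their choice did not use. The site called 7mer-m8 pairs with bases 2 to 8 and reads TGAATGT in the mRNA; an 8mer is the same followed by A, and a 7mer-A1 reads GAATGTA, so that each 8mer holds both. In the longest annotated 3′ UTR, Dicer1, Ago2 and Ago3 had a 7mer-m8, 3 of 10 genes, as did 18.4% of the 12840 tested genes with a 3′ UTR of at least 50 bases. Ago3 and Ago2 have very long 3′ UTRs, of 12742 and 11064 bases, at percentiles 99.9 and 99.8 of these genes, and that of Dicer1, of 3851 bases, is at percentile 91.3. The 7 sites are shown with 8 bases on each side, site in capitals, each on the minus strand of GRCm38 and written 5′ to 3′ as in the mRNA.
Dicer1, chr12:104689810-104689816: tgatctttTGAATGTtgtagcta
Ago2, chr15:73104073-73104079: aagcaaacTGAATGTgattgtgt
Ago2, chr15:73102315-73102322: tgaaggctTGAATGTAacagatta
Ago2, chr15:73101795-73101802: tctcaagtTGAATGTAccggctta
Ago3, chr4:126342560-126342566: ctagctgaTGAATGTcagcttgt
Ago3, chr4:126337668-126337674: gtgttcacTGAATGTcagcatgc
Ago3, chr4:126334165-126334172: aagaaaaaTGAATGTAtgttaagt
Ago2 had 2 8mers and Ago3 had 1, and 6.09% of the searched genes had an 8mer. The log2 fold changes of the genes with sites were 0.26 for Dicer1, -0.05 for Ago2 and -0.10 for Ago3, and none passed the test. Over all searched genes the median log2 fold change was 0.03 with a 7mer-m8 in the 3′ UTR and 0.03 without one. In the coding sequence, Drosha, Dgcr8, Dicer1 and Tnrc6a had a 7mer-m8, 4 of 10 genes, as did 12.7% of 13057 genes. These 4 coding sequences had 4119, 2319, 5718 and 5688 bases, and those of the others of the 10 between 1095 and 3612 bases. Over the 13057 genes the median log2 fold change was -0.02 with such a coding site and 0.03 without one. A match is a description of the sequence and does not show that the miRNA binds there.

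The other genes of the pathway were taken from lists of known partners, 103 genes of which 99 were tested. The adjusted test called 1 of them, Mov10, which was lower, against 3.57% of all tested genes. Of the 99 genes, 22 were higher and 6 lower at an unadjusted p under 0.05, beside 11.8% and 13% of all tested genes. Both mimic libraries were above both controls for 55 genes and below them for 14, against 28.9% and 29.5% of all tested genes. The median log2 fold change of the 99 genes was 0.12, with 74 genes above 0 and 25 below. Many of these genes are also used outside the miRNA pathway.

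**Figure D5:**
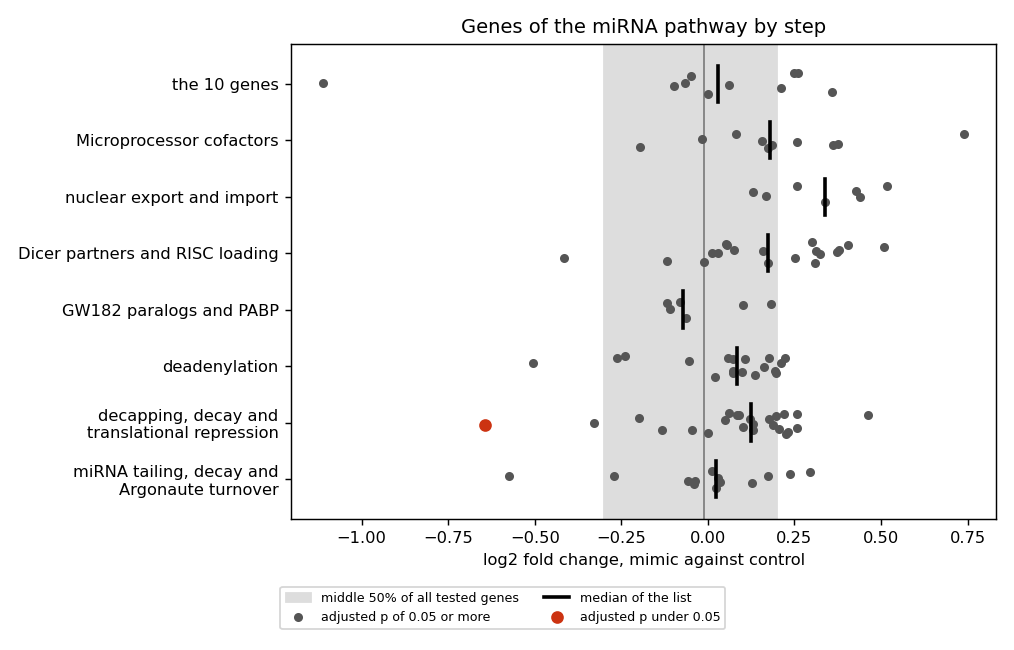
Log2 fold change (mimic against control) of each tested gene of the pathway by step, without the PIWI relatives, which are not drawn. The black bars are the medians of the lists, and the grey band is the middle 50% of all tested genes. The red point is Mov10, the one gene past an adjusted p of 0.05 by edgeR. All 7 genes of nuclear export and import lie above 0, and Ago4 lies far to the left among the 10 genes.

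Mov10, an RNA helicase that works with Argonaute complexes (chr3:104794836-104818563), had 58.6 and 53.3 CPM in the controls and 35.8 CPM in both mimic libraries. The log2 fold change was -0.64 with an SE of 0.10, an interval from -0.89 to -0.40 and an adjusted p of 0.0251 by edgeR, less than a 2-fold difference. Without mimic replicate 3 the adjusted p was 0.0718 with a log2 fold change of -0.64, and the call was also lost without a filter on low counts (0.0746) and in the 3 limma fits on TPM (between 0.135 and 0.314). The other 23 genes for decapping, decay and translational repression had none past the test (3.57% of all tested genes), and the list's median was 0.13.

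Of the 7 genes of nuclear export and import, the list to which Xpo5 is closest, 0 passed the adjusted test (3.57% of all tested genes), and 4 were higher at an unadjusted p under 0.05 (11.8% of all). All 7 had both mimic libraries above both controls, as had 28.9% of all, and the median log2 fold change was 0.34. Rcc1, which charges Ran with GTP, had 41.1 and 48.2 CPM in control and 70.2 and 57.6 CPM in mimic libraries, and its log2 fold change of 0.52 had an SE of 0.13 and an adjusted p of 0.0777 by edgeR. Ran, the GTPase that Xpo5 needs to bind a hairpin, had 230 and 265 CPM in control and 349 and 316 CPM in mimic libraries. Its log2 fold change was 0.43 with an SE of 0.11 and an adjusted p of 0.0794.

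The Microprocessor cofactors had 4 of 10 genes higher and 0 lower at an unadjusted p under 0.05 (11.8% and 13% of all tested genes), 0 after adjustment (3.57% of all), and a median log2 fold change of 0.18. Ncbp1, a subunit of the nuclear cap-binding complex, had 37.7 and 61.3 CPM in control and 88.3 and 76.9 CPM in mimic libraries. Its log2 fold change of 0.74, the largest of the 99 genes, had an SE of 0.21 and an adjusted p of 0.0927 by edgeR. The controls of Ncbp1 differed between themselves more than the mimic libraries did.

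Among the 19 Dicer partners and chaperones that load Argonautes, 9 were higher and 1 lower at an unadjusted p under 0.05 (11.8% and 13% of all tested genes), 0 after adjustment (3.57% of all), with a median of 0.17. The cochaperone Dnaja1 had 106 and 132 CPM in control and 184 and 154 CPM in mimic libraries, a log2 fold change of 0.51 with an SE of 0.14 and an adjusted p of 0.0834 by edgeR. The 1 lower gene was Prkra, which encodes PACT, the other double-stranded RNA-binding partner of Dicer1 beside Tarbp2. It had 43.5 and 39.5 CPM in control and 27.5 and 34.7 CPM in mimic libraries, and its log2 fold change was -0.41 with an SE of 0.14 and an adjusted p of 0.127.

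For the steps that follow target recognition, the 6 genes of the GW182 paralogs and poly(A)-binding proteins had a median log2 fold change of -0.07, and 0 of them had an unadjusted p under 0.05 (24.8% of all tested genes). Of 18 deadenylation genes, 1 was higher and 2 lower at that level (24.8% of all tested genes in both directions), 0 after adjustment (3.57% of all), with a median of 0.09. Pan2, the catalytic subunit of a deadenylase, had 68.9 and 60.6 CPM in control and 43.0 and 48.1 CPM in mimic libraries. Its log2 fold change was -0.51 with an SE of 0.11 and an adjusted p of 0.0583 by edgeR.

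Of 13 tested genes for the tailing and decay of miRNAs and the turnover of Argonautes, 2 were higher and 1 lower at an unadjusted p under 0.05 (24.8% of all tested genes in both directions), 0 after adjustment (3.57% of all), with a median of 0.02. P4ha1, a prolyl hydroxylase subunit whose enzyme modifies Ago2, had 61.8 and 86.1 CPM in control and 41.7 and 57.6 CPM in mimic libraries. Its log2 fold change was -0.57 with an SE of 0.20 and an adjusted p of 0.133 by edgeR. The PIWI relatives of the Argonautes, which act mainly in the germline, had low levels. Of the 2 tested, 0 were higher and 1 lower at an unadjusted p under 0.05 (24.8% of all tested genes in both directions). After adjustment 0 passed (3.57% of all). Piwil2, the lower one, had 0.74 and 1.08 TPM in control and 0.48 and 0.63 TPM in mimic libraries. Its log2 fold change was -0.70 with an SE of 0.24 and an adjusted p of 0.138 by edgeR. Piwil4 had between 6 and 14 counts, and Piwil1 had 1 count in 1 library.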

How the data were processed

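Mouse SI organoid RNA was sequenced in 4 libraries as single reads of 100 cycles. The authors trimmed the reads with Trimmomatic, mapped them to GRCm38 transcripts with RSEM, and deposited expected counts per gene without normalization and TPM. For RNA selection, the labels name poly(A) enrichment, whereas depletion of ribosomal RNA is given in the supplemental methods. The RSEM settings and the transcript release are not given in the sources used here. RSEM divides reads shared by similar transcripts, and 6 of the 10 genes had expected counts that were not whole in at least 1 library (within rounding in the deposited table). Each deposited table also has columns that match no sample, 3 in number, which were not used.

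The expected counts were rounded for edgeR (version 4.0.16, R version 4.3.3), which filtered genes with filterByExpr, set TMM factors and ran its quasi-likelihood test (estimateDisp, glmQLFit without its legacy form, glmQLFTest), with Benjamini-Hochberg adjustment over 17155 genes. CPM use the TMM-corrected library totals. The SE is the log2 fold change divided by the square root of F, and the 95% interval uses the t distribution with the degrees of freedom of the fit. Levels were compared between genes in TPM, with Argonaute shares in CPM as an alternative. The steps were tested on simulated data. With 2 libraries per group, the spread between replicates rests on few values, and counting error adds to it for genes with few reads.

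The 10 genes and the lists were chosen with earlier results of these data known. Named beside the 10 are the list genes with an adjusted p under 0.05, in each list the gene with the largest log2 fold change and a mean of at least 100 counts, and the GW182 and PIWI relatives. Ran and Prkra were named after their values were seen. All 159 listed symbols had an identifier. Gene positions and the longest 3′ UTR and coding sequence of at least 50 bases came from GENCODE release M21 (GRCm38), and the miRNA sequences from RefSeq (GRCm38.p6). As alternatives, the likelihood-ratio and exact tests of edgeR and DESeq2 1.42.0 were run, as were RLE factors, upper-quartile factors and library totals alone. Filters were none, or at least 10 counts in every library. TPM were tested with limma 3.58.1 on a log2 scale with a pseudocount of 1 or 0.1 (genes of at least 1 TPM in 2 libraries), and with a pseudocount of 1 unfiltered, where a fold change is on the log2(value + pseudocount) scale. Each library was also left out in turn, where the lone library of a group is assumed to vary like the other group. The legacy quasi-likelihood form was added after the data were seen. Figures were drawn with matplotlib 3.10.9.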

Additional observations from a re-analysis of the deposited data

How the results depend on the processing

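None of the 10 genes was called at an adjusted p of 0.05 by any alternative except that leaving out libraries gave between 0 and 2 calls, the 2 being Xpo5 (log2 fold change 0.448, higher) and Ago4 (-1.50, lower) without control replicate 2, a setting in which 2365 genes were called over the whole table against 612. The wider pathway had 8 calls by the exact test (1788 over all tested genes) and 8 by the likelihood-ratio test (1864 over all). DESeq2 gave 7 (1299 over all) and upper-quartile factors gave 2 (621 over all), against 1 and 612 in the main test. The wider pathway had 0 calls without a filter (192 over all) and 0 in each of the 3 limma fits on TPM (75, 27 and 2 over all). It had between 0 and 17 calls when a library was left out (2 without control replicate 1, 17 without control replicate 2, 0 without mimic replicate 3 and 3 without mimic replicate 4). The setting with the most calls in the wider pathway, without control replicate 2, also had the most calls over the whole table. The cause of these shifts was not tested. Directions near 0 turned: in the limma fits with a pseudocount of 1 (both), and of 0.1, Drosha to 0.0087 and 0.0090 and Ago2 to 0.0151 and 0.0155, and Tnrc6a to -0.0513 with upper-quartile factors and -0.0116 with at least 10 counts in every library. Over the libraries left out, Xpo5 ran from 0.2573 to 0.4619, Dicer1 from 0.1557 to 0.3697, Tarbp2 from 0.1003 to 0.3250, Ago4 from -1.4982 to -0.5211, Ago1 from -0.0447 to 0.1750, Ago2 from -0.1444 to 0.0504 and Tnrc6a from -0.0540 to 0.0561. Dgcr8, Xpo5, Dicer1 and Tarbp2 stayed above 0 and Ago3 and Ago4 below 0 in all alternatives run. Ago4 was left out by the TPM minimum and had no value in the 2 filtered limma fits. On the CPM scale the Argonaute shares were 21.3% (control) and 22.7% (mimic) for Ago1, 69.9% and 69.3% for Ago2, and 7.93% and 7.61% for Ago3. The number of genes with a site was 2 for 8mers and 2 for 7mer-A1 sites in the 3′ UTR and 4 for the coding sequence, against 3. No paired analysis was possible because the groups share no replicate number. All 10 genes had at least 45 counts in each library, and Ago4 is the one for which counting error is not small.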

Other observations

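The annotation lists 2202 miRNA precursor genes. Of these, 228 had any counts and 26 were tested, but the 26 held only 14 distinct sets of values, and 9 of them had identical values in all libraries. An adjusted p of 0.05 was passed by 2 of the 26 (3.57% of all tested genes), both higher with the mimic (edgeR quasi-likelihood test). Gm47295 had 9.15 and 18.2 CPM in the controls and 70.3 and 50.9 CPM with the mimic, with a log2 fold change of 2.16. Gm44390 had 16.5 and 12.1 CPM in the controls and 23.8 and 27.0 CPM with the mimic, with a log2 fold change of 0.83. Mature miRNAs were not measured in these libraries. Of 10 genes named as miRNA hosts, 2 were tested and 0 called, and both are named here after their values were seen. Mir17hg, the host of the miR-17 cluster, had 19.6 and 18.5 CPM in the controls and 25.9 and 23.3 CPM with the mimic, and Mir22hg had between 5.03 and 9.71 CPM in the 4 libraries.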
